A study of Mus musculus with 12 samples.

Results

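Heparan sulfate is a sulfated sugar chain that tubular cells carry on membrane and matrix proteins, and the genes described here are those that build the chain, sulfate it, trim it and supply its protein cores. They were chosen by name because Hs6st2, which encodes an enzyme adding 6-O-sulfate to the chain, was listed at 0 in both mutant genotypes, and the other enzymes and cores were taken by their role in the same pathway. The set holds 42 genes of the 47642 in the table. Of these, 37 had a count in at least 1 library, 3 of them (Hs3st3b1, Sulf1 and Sulf2) lay under the mean of 1 normalized count set as the filter, and 34 were tested. The 5 genes at 0 in all 12 libraries were Hs6st3, Hs3st2, Hs3st3a1, Hpse2 and Xylt1.

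RNA was sequenced from mIMCD3 cells, an immortalized line from the inner medullary collecting duct of mice that carried the SV40 early region as a transgene. The 3 genotypes were wild-type (Wt), 1 Pkd1-/- clone made with CRISPR and 1 Pkd2-/- clone made with TALEN, all untreated and all derived from the same line. The Pkd1-/- clone carries deletions of chr17:24550055-24594963 and chr17:24550106-24594903 on its 2 alleles, and the Pkd2-/- clone a deletion of chr5:104478281-104490878. Of 6 dishes grown per genotype, the 4 with the highest RNA purity ratios were sequenced, harvested 4 days after the cells had become confluent. Replicates are thus dishes of 1 clone, so every p-value below measures the spread between dishes, and a difference between genotypes cannot be told apart from a difference between clones.

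Values are normalized counts, reads per gene divided by a size factor of the library and rounded. By an estimate from the rounding, between 23200000 and 30300000 reads were counted per library, and 1 read was worth 0.89 to 1.13 normalized counts. The Pkd1 gene was counted at 682 to 883 in Wt and 30 to 49 in Pkd1-/- libraries, while the Pkd2 gene, of which only a part was deleted, was counted at 3855 to 4135 in Pkd2-/- libraries and checks nothing there. Of 15 collecting duct and distal tubule markers, 14 had a count in every genotype, and they summed to 84617 to 93952 in Wt, 81172 to 83256 in Pkd1-/- and 88732 to 92637 in Pkd2-/- libraries. Single markers moved within these sums. Of the 14, 6 passed an adjusted p-value of 0.05 in Pkd1-/- cells (1 higher and 5 lower), against 27.1% of all genes tested. In Pkd2-/- cells 12 passed (7 higher and 5 lower), against 42.3%. Krt19, a simple epithelial keratin, was lower in both mutants (log2 fold change -1.75 and -1.66, adjusted p = 5.03e-14 and 2.72e-14). Gata3, a transcription factor of the collecting duct, was lower in Pkd1-/- cells (-2.20, adjusted p = 6.34e-10) and higher in Pkd2-/- cells (0.64, adjusted p = 0.000968). Aqp2, the water channel that defines principal cells, was at 0 in every library. Of the endothelial markers, Cdh5, Kdr and Tie1 were at 0 throughout and Pecam1 had 0 to 9 counts. Of the leukocyte markers, Cd3e and Itgam were at 0, Ptprc had 0 to 5 counts and Cd68, a lysosomal protein gene, 47 to 69. The 6 fibroblast markers summed to 25 to 55 in Wt, 23 to 37 in Pkd1-/- and 15 to 99 in Pkd2-/- libraries, with Pdgfrb at 0 in Pkd2-/- and 0 to 4 elsewhere, and the 3 podocyte markers to 2 to 8 in all. The 5 proximal tubule markers, of which Slc34a1 was at 0 and Lrp2 gave nearly all counts, summed to 480 to 557 in Wt, 33 to 71 in Pkd1-/- and 744 to 1222 in Pkd2-/- libraries. Their part in the results below was not tested.

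Heparan sulfate synthesis starts with a short linker sugar on a serine of a core protein, onto which polymerases add alternating glucuronic acid and N-acetylglucosamine. N-deacetylase/N-sulfotransferases then open the chain to modification, an epimerase converts part of the glucuronic acid, and 2-O-, 6-O- and 3-O-sulfotransferases add sulfate at set positions. The resulting pattern decides which growth factors, among them fibroblast growth factors, the chain binds, and in the kidney it takes part in branching of the ureteric bud, from which the collecting duct forms.

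Start regions are shown for the 6-O-sulfotransferase pair, in which Hs6st2 was lost and Hs6st1 kept, and for Hs3st5, which was listed at 0 in Pkd2-/- cells. Each run is the 250 bases before a start site annotated by RefSeq on GRCm38.p6, written along the strand of the gene, and capitals mark CG dinucleotides, the sites at which mammalian DNA is methylated. RefSeq windows were given for 32 of the 42 genes. The Hs6st2 window shown (chrX:51680478-51680727, minus strand) precedes the second of 2 start sites, and 39 of its bases lie in an annotated exon. The Hs6st1 window is chr1:36068150-36068399, plus strand, and the Hs3st5 window chr10:36506557-36506806, plus strand.
Hs6st2: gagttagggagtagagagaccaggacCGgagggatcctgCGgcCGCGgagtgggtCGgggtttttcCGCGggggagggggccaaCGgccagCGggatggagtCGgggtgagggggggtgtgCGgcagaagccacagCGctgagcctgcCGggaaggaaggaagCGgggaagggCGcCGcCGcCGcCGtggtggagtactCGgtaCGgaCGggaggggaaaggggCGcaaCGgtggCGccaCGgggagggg
Hs6st1: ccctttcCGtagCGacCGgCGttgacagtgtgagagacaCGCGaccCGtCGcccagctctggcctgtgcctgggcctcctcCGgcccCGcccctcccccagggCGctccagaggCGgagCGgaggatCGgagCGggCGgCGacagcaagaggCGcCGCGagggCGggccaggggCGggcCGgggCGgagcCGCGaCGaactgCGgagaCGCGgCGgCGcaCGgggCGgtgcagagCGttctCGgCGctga
Hs3st5: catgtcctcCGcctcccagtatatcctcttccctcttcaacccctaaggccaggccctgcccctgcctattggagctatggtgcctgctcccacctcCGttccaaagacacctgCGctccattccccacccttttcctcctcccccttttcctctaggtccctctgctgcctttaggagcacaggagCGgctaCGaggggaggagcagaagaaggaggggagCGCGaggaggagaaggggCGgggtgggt

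The window of Hs6st1 held 37 CG dinucleotides, that of the second Hs6st2 start 26 and that of Hs3st5 8. At least as many were held by 2.2%, 9.59% and 43.0% of the 32851 RefSeq windows of the mouse genome, respectively, whose median was 6, and the median over 38 windows of the gene set was 17. The window of the first Hs6st2 start (chrX:51681603-51681852, all of it within an annotated exon and not printed) held 7 CG dinucleotides and a TATAAA match, a motif found on either strand in 12.4% of all windows. GGGCGG, a motif bound by Sp1 family factors, matched on either strand in the windows of Hs6st1 and Hs3st5 and in neither Hs6st2 window, and in 32.7% of all windows.

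Hs6st2 (chrX:51387212-51681856, minus strand) was counted at 452, 447, 452 and 442 in the Wt libraries and at 0 in each of the 4 Pkd1-/- and 4 Pkd2-/- libraries. These are the values that chose the gene set and are given without a test. Taken against 3 counts per library, the limit that a count of 0 allows, the level was at least 149-fold lower in both mutants. In RNA from whole dishes, fewer cells with a transcript and less of it per cell cannot be told apart. The other 41 genes were compared as follows, with a gene called where the adjusted p-value was under 0.05 and the log2 fold change reached 1 or -1.

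In Pkd1-/- cells, 3 of the 33 tested genes other than Hs6st2 were called, all lower than in Wt (Hs3st1, Hs3st5 and Gpc2), against 6.24% of the 18552 genes tested in the whole table (2.96% higher and 3.28% lower). By the adjusted p-value alone, 2 were higher (Gpc1 and B3gat3) and 13 lower, against 27.1% of all genes tested (13.6% higher and 13.5% lower). Over the 33 genes the median was -0.21 on the log2 scale, with 0.01 over all genes tested. In Pkd2-/- cells, 8 of the 33 were called, all lower than in Wt (Ndst4, Hs3st5, Hs3st6, Gpc2, Gpc3, Gpc4, Gpc6 and Sdc2), against 9.62% of all genes (3.24% higher and 6.38% lower). By the adjusted p-value alone 5 were higher and 14 lower, against 42.3% of all genes (20.0% higher and 22.3% lower), and the median was -0.21, with -0.01 over all genes. Both comparisons use the same Wt libraries. Gpc2 passed the filter only through its Wt counts and so had to differ, and without it 2 of 32 genes were called in Pkd1-/- and 7 of 32 in Pkd2-/- cells. Among the 27 genes whose mean reached 10 normalized counts, 0 were called in Pkd1-/- cells by limma, with 12 below an adjusted and 14 below an unadjusted p-value of 0.05, and 5 in Pkd2-/- cells, where 5.36% and 8.76% of all genes at that level were called.

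Between the mutants, 10 of the 33 genes were called, against 11.8% of all genes tested (4.53% higher and 7.23% lower in Pkd2-/- cells). Hs3st1 and Ndst1 were higher in Pkd2-/- than in Pkd1-/- cells, and Hs3st5, Hs3st6, Ndst4, Gpc1, Gpc3, Gpc4, Gpc6 and Sdc2 were lower. By the adjusted p-value alone, 9 were higher and 11 lower in Pkd2-/- cells, against 46.3% of all genes (21.9% higher and 24.3% lower).

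**Figure D1:**
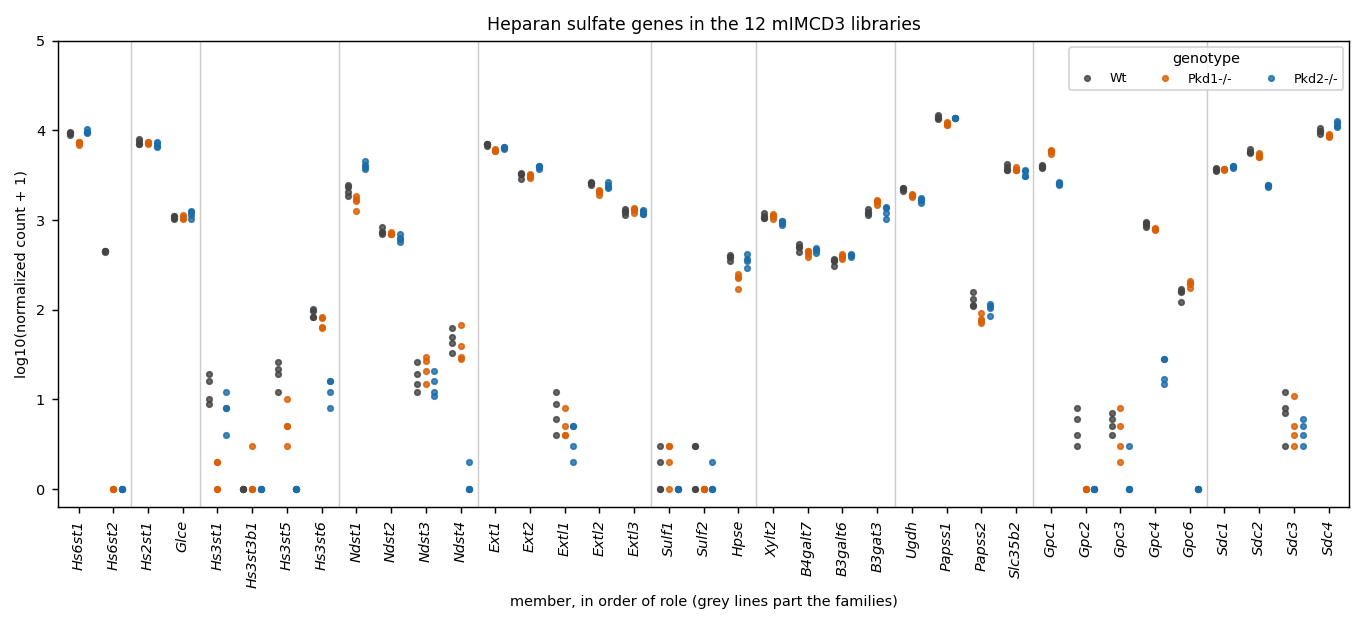
Normalized counts, as log10(count + 1), of the 37 detected genes in the 12 libraries, with 1 point per library, colored by genotype and ordered by role. Hs6st2 sits at 442 to 452 in Wt and at 0 in all 8 mutant libraries, while Gpc6 is at 0 and Gpc4 at 14 to 27 in Pkd2-/- libraries only.

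**Figure D2:**
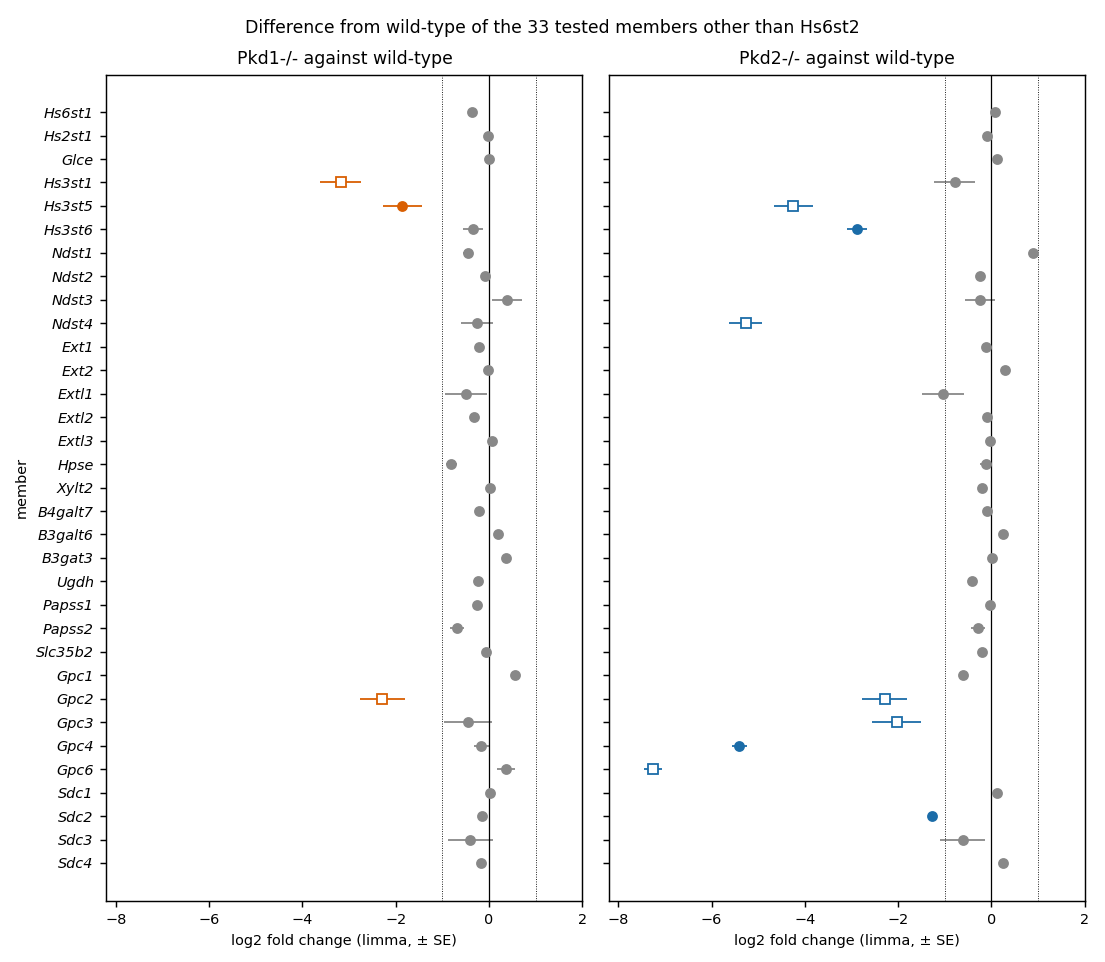
Log2 fold change against wild-type (limma, ± SE, 4 libraries against 4) for the 33 tested genes other than Hs6st2, with Pkd1-/- cells on the left and Pkd2-/- cells on the right. Colored points were called, dotted lines mark a log2 fold change of 1 in either direction, and open squares mark genes whose mutant libraries all held at most 3 counts, for which the fitted value depends on the pseudocount of 1. All 3 and 8 colored points lie left of 0.

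Hs6st1, Hs2st1 and Glce, the other enzymes of the epimerase, 2-O- and 6-O-sulfation steps with a count, were called in neither mutant. Hs6st1, the 6-O-sulfotransferase of most tissues, was counted at 8847, 9417, 9660 and 9453 in Wt, at 6869, 7431, 7198 and 7373 in Pkd1-/- and at 9476, 9650, 9555 and 10431 in Pkd2-/- libraries. All Pkd1-/- libraries lay below all Wt libraries, and the Pkd2-/- libraries overlapped with Wt. The log2 fold change was -0.37 (SE 0.05, adjusted p = 4.23e-06) in Pkd1-/- and 0.07 (SE 0.05, adjusted p = 0.279) in Pkd2-/- cells. It differed between the mutants by 0.44 (SE 0.05, adjusted p = 2.01e-07). Per kb of exon, Hs6st1 stood at 1686 ± 62.9 and Hs6st2 at 57.4 ± 0.613 normalized counts in Wt (SD, n = 4), so Hs6st2 made up 3.3% ± 0.137 of the 6-O-sulfotransferase transcripts there. Their summed level per kb was 74.7% of Wt in Pkd1-/- and 101% in Pkd2-/- cells, and Hs6st3 was at 0 throughout.

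Hs2st1, the 2-O-sulfotransferase of heparan sulfate, and Glce, the epimerase acting before it, passed the test in neither mutant. Hs2st1 ranged from 7056 to 7985 in Wt, 7099 to 7421 in Pkd1-/- and 6608 to 7372 in Pkd2-/- libraries, with log2 fold changes of -0.03 (SE 0.05, adjusted p = 0.695) and -0.10 (SE 0.05, adjusted p = 0.14). Glce ranged from 1019 to 1136 in Wt and Pkd1-/- libraries together and from 1020 to 1250 in Pkd2-/- libraries, where it passed without library 3 (log2 fold change 0.17, adjusted p = 0.0358).

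The 3-O-sulfotransferases, which place the rarest sulfate of the chain, were weakly expressed. Of the 3 tested, 2 were called in Pkd1-/- and 2 in Pkd2-/- cells, all lower than in Wt, against 3.28% and 6.38% of all genes. Hs3st6, the most abundant of them per kb, was counted at 102, 97, 83 and 83 in Wt, at 80, 64, 82 and 62 in Pkd1-/- and at 15, 11, 7 and 15 in Pkd2-/- libraries. The Pkd2-/- libraries stood far below the others, and the Pkd1-/- libraries just below Wt. Its log2 fold change was -2.88 (SE 0.22, adjusted p = 3.78e-09) in Pkd2-/- and -0.34 (SE 0.22, adjusted p = 0.285) in Pkd1-/- cells. Hs3st6 lies 156 kb from Pkd1 on chromosome 17, outside the deletions.

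Hs3st5 was counted at 25, 11, 21 and 18 in Wt, at 9, 4, 4 and 2 in Pkd1-/- and at 0 in all Pkd2-/- libraries. The 3 genotypes did not overlap. The log2 fold change was -1.86 (SE 0.42, adjusted p = 0.00236) in Pkd1-/- cells, and the level in Pkd2-/- cells was at least 6.25-fold lower than in Wt (adjusted p = 1.34e-07). Hs3st1, which makes the antithrombin-binding site of heparin, was counted at 15, 8, 18 and 9 in Wt, at 1, 1, 0 and 0 in Pkd1-/- and at 7, 11, 7 and 3 in Pkd2-/- libraries. Here the Pkd1-/- libraries stood apart below the other genotypes. They summed to 2 counts against 50 in Wt, or 4.0% (95% exact interval 0.471% to 15.2%, adjusted p = 1.88e-05), while the Pkd2-/- libraries overlapped with Wt (log2 fold change -0.79, SE 0.44, adjusted p = 0.169). Within 5 Mb of Hs3st1, the 52 genes that reached a mean of 10 normalized counts, the level set for all such medians below, had a median of -0.29 in Pkd1-/- and 0.05 in Pkd2-/- cells. This interval and those that follow cover counting error only. Summed per kb, the family stood at 70.6% of Wt in Pkd1-/- and 15.5% in Pkd2-/- cells. Hs3st3b1 had 2 counts in 1 Pkd1-/- library and 0 elsewhere.

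Of the 4 N-deacetylase/N-sulfotransferases, which take the first modifying step, 1 was called in Pkd2-/- cells against Wt and 2 between the mutants. Of all genes tested, 9.62% and 11.8% were called in these comparisons. Ndst1 was counted at 2034, 1874, 2362 and 2481 in Wt, at 1252, 1849, 1628 and 1719 in Pkd1-/- and at 3925, 4078, 3729 and 4569 in Pkd2-/- libraries. The Pkd1-/- libraries all lay below and the Pkd2-/- libraries all above Wt. Against Wt the log2 fold change was -0.45 (SE 0.10, adjusted p = 0.00298) in Pkd1-/- and 0.90 (SE 0.10, adjusted p = 9.51e-07) in Pkd2-/- cells, both short of the fold threshold, and 1.35 (SE 0.10, adjusted p = 3.32e-09) between the mutants. The span of Ndst1 overlaps that of Rps14, a ribosomal protein gene on the other strand, without a shared exon base, and Rps14 had log2 fold changes of -0.13 and 0.09 (adjusted p = 0.2 and 0.372).

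Ndst4 was counted at 49, 32, 42 and 62 in Wt, at 29, 27, 66 and 38 in Pkd1-/- and at 0, 0, 1 and 0 in Pkd2-/- libraries. Pkd1-/- overlapped with Wt, and Pkd2-/- stood apart at the detection limit, with 0.541% of the Wt counts (95% exact interval 0.0136% to 3.05%, adjusted p = 5.01e-10). Ndst2 ranged from 692 to 830 in Wt, 691 to 728 in Pkd1-/- and 563 to 708 in Pkd2-/- libraries, where the groups overlapped at a log2 fold change of -0.25 (SE 0.07, adjusted p = 0.00841). Ndst3, at 10 to 29 in all libraries, passed the test in neither mutant (adjusted p = 0.428 and 0.571). Per kb of exon, the family summed to 435 in Wt, 355 in Pkd1-/- and 632 in Pkd2-/- cells, and Ndst1 held 60.7% ± 2.24, 54.6% ± 4.17 and 77.8% ± 1.65 of it (SD, n = 4). Ndst4 held 0.9% ± 0.187 of the family in Wt.

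**Figure D3:**
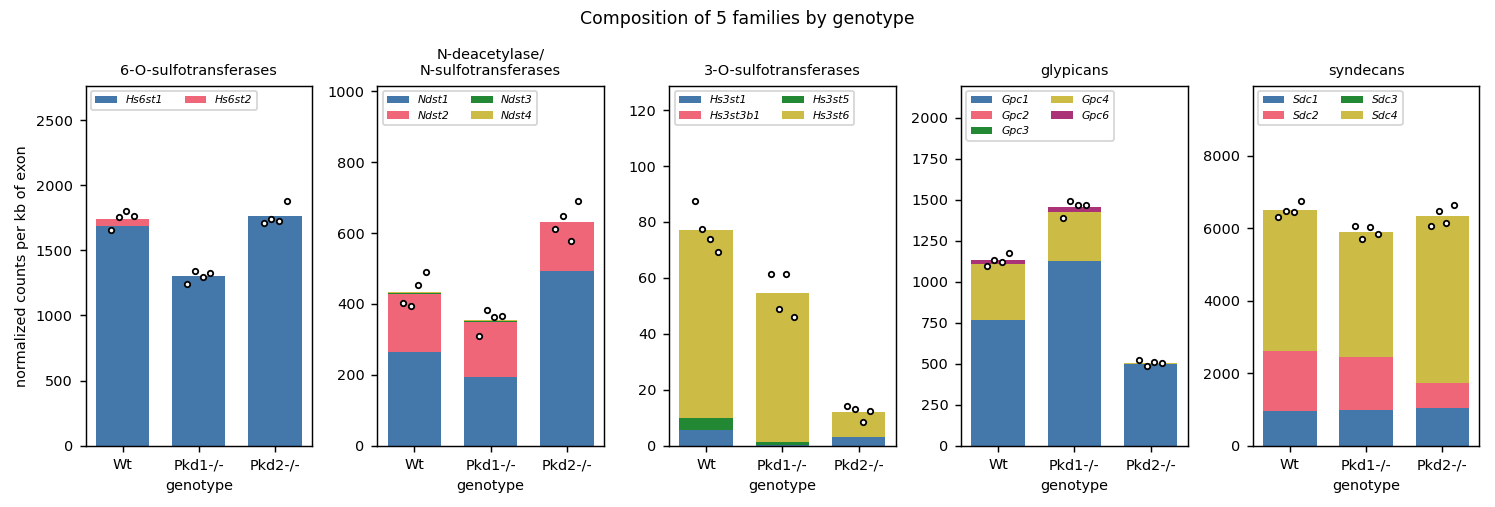
Mean normalized counts per kb of exon for 5 families in the 3 genotypes, stacked by gene, with open circles for the family total in each of the 4 libraries. The glypican total lies at 484 to 523 in Pkd2-/- libraries, below the 1092 to 1175 of Wt, while the syndecan totals of both genotypes overlap.

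Of the 5 glypicans in the set, cores anchored to the membrane by a lipid, 4 were called in Pkd2-/- and 1 in Pkd1-/- cells. All were lower than in Wt, a direction in which 6.38% and 3.28% of all genes were called. Gpc2, the only call in Pkd1-/- cells, passed the filter only through its Wt counts and so had to differ. Without it, the calls in Pkd2-/- cells were Gpc3, Gpc4 and Gpc6, of which Gpc3 was near the detection limit. Gpc5, a glypican outside the set, had 0 to 2 counts in Pkd1-/- libraries and 0 elsewhere, and was not tested. Gpc1 made up 67.8% ± 1.54 of the family per kb in Wt (SD, n = 4). It was counted at 3793, 3892, 4042 and 4071 in Wt, at 5466, 5975, 5846 and 5878 in Pkd1-/- and at 2669, 2470, 2568 and 2549 in Pkd2-/- libraries. The Pkd1-/- libraries lay above Wt and the Pkd2-/- libraries below, without overlap. The log2 fold change was 0.55 (SE 0.04, adjusted p = 1.87e-08) in Pkd1-/- and -0.62 (SE 0.04, adjusted p = 1.56e-09) in Pkd2-/- cells, both short of the fold threshold. Between the mutants it was -1.17 (SE 0.04, adjusted p = 1.15e-13). Ankmy1, on the other strand, shares 977 exon bases with Gpc1 and had a mean of 4.83 normalized counts.

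Gpc4 (chrX:52053021-52165252, minus strand) was counted at 870, 933, 833 and 949 in Wt, at 793, 809, 796 and 781 in Pkd1-/- and at 16, 14, 27 and 27 in Pkd2-/- libraries. The Pkd2-/- libraries lay far below both other genotypes. The log2 fold change was -5.41 (SE 0.16, adjusted p = 4.43e-15) in Pkd2-/- cells, and -0.17 (SE 0.16, adjusted p = 0.484) in Pkd1-/- cells, whose libraries nonetheless all lay below Wt. Gpc6 was counted at 169, 155, 122 and 162 in Wt, at 193, 174, 198 and 210 in Pkd1-/- and at 0 in all Pkd2-/- libraries. Its level in Pkd2-/- cells was thus at least 50.7-fold lower than in Wt (adjusted p = 9e-16), while in Pkd1-/- cells it stood above Wt in every library with a log2 fold change of 0.36 (SE 0.19, adjusted p = 0.192).

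Gpc2 and Gpc3 were near the detection limit. Gpc2 had 5, 7, 2 and 3 counts in Wt and 0 in all mutant libraries, at least 1.42-fold lower. It passed the filter only through Wt, and its p-values are not given. Gpc3 had 4, 3, 5 and 6 counts in Wt, 4, 7, 2 and 1 in Pkd1-/- and 0, 0, 2 and 0 in Pkd2-/- libraries, and the Pkd2-/- libraries summed to 11.1% of Wt (95% exact interval 1.25% to 46.4%, adjusted p = 0.00376). Both calls were lost with a pseudocount of 5 in place of 1. The glypican total per kb was 129% of Wt in Pkd1-/- and 44.7% in Pkd2-/- cells, where Gpc1 made up 98.4% ± 0.558 of it, Gpc4 1.57% ± 0.514 and Gpc6 0.

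The syndecans, cores with a membrane-spanning segment, were the more abundant core family, at 6493 ± 190 normalized counts per kb in Wt against 1130 ± 34.6 for the glypicans (SD, n = 4). Sdc2 was counted at 6210, 5707, 5679 and 5666 in Wt, at 5577, 5079, 5306 and 5014 in Pkd1-/- and at 2379, 2446, 2350 and 2473 in Pkd2-/- libraries. The 3 genotypes did not overlap. Against Wt the log2 fold change was -1.27 (SE 0.05, adjusted p = 1.11e-13) in Pkd2-/- and -0.15 (SE 0.05, adjusted p = 0.0225) in Pkd1-/- cells.

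Sdc4, the most abundant syndecan per kb, was counted at 9236, 9803, 9858 and 10706 in Wt, at 8928, 8431, 9045 and 8746 in Pkd1-/- and at 11002, 12121, 11285 and 12575 in Pkd2-/- libraries. The mutants lay on opposite sides of Wt without overlap, at log2 fold changes of -0.17 (SE 0.05, adjusted p = 0.0202) and 0.25 (SE 0.05, adjusted p = 0.00079). Sdc4 lies on chromosome 2, where the 68 genes within 5 Mb of it stood at a median of 0.35 on the log2 scale in Pkd2-/- cells. The 1058 genes of the whole chromosome stood at 0.33, and the part of this shift in the value was not tested. Sdc1, the main syndecan of epithelia, was at 3851 to 4030 in Pkd2-/- against 3486 to 3778 in Wt libraries (log2 fold change 0.12, SE 0.04, adjusted p = 0.0307), and Sdc3 stayed at 11 counts or fewer. The syndecan total per kb was 91% of Wt in Pkd1-/- and 97.5% in Pkd2-/- cells, and the share of Sdc2 in it was 25.4% ± 1.77 in Wt, 25.2% ± 0.716 in Pkd1-/- and 10.8% ± 0.253 in Pkd2-/- cells.

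Of the enzymes that polymerize the chain and build its linker, 9 were tested. By limma, 0 of the 9 were called in either mutant, against 6.24% and 9.62% of all genes tested. At these shares, 9 genes are too few to show a shortfall of calls. Each mutant had 5 of them at an unadjusted p-value under 0.05. By the adjusted p-value alone, 3 passed in Pkd1-/- and 4 in Pkd2-/- cells, against 27.1% and 42.3% of all genes. The median absolute log2 fold change of the 9 equaled that of all genes tested in Pkd1-/- cells (0.21). It was smaller in Pkd2-/- cells, at 0.11 against 0.30. Ext1, which forms the chain polymerase with Ext2, was at 6633 to 7083 in Wt, 5824 to 6194 in Pkd1-/- and 6218 to 6532 in Pkd2-/- libraries. Its log2 fold changes were -0.21 (SE 0.04, adjusted p = 0.000577) and -0.11 (SE 0.04, adjusted p = 0.0309). Ext2 was at 2899 to 3330 in Wt and 2978 to 3262 in Pkd1-/- libraries, and higher at 3741 to 4021 in Pkd2-/- libraries (log2 fold change 0.29, SE 0.05, adjusted p = 0.000124). Like Sdc4, Ext2 lies on chromosome 2, and the median of the 45 genes within 5 Mb of it was 0.36 in Pkd2-/- cells.

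Extl2, a relative of Ext1 that can end or start chains, was at 1905 to 2179 in Pkd1-/- against 2494 to 2655 in Wt libraries (log2 fold change -0.32, SE 0.05, adjusted p = 0.000151) and overlapped with Wt in Pkd2-/- cells. Extl3, thought to start the chain, lay at 1140 to 1371 in all 12 libraries and passed the test in neither mutant. Extl1 had 11 counts or fewer, with a log2 fold change of -1.03 (SE 0.45, adjusted p = 0.0771) in Pkd2-/- cells, which passed both thresholds when the second Wt library was left out (-1.31, adjusted p = 0.0331).

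Of the linker enzymes, Xylt2 adds the first sugar to the core protein, B4galt7 and B3galt6 add the galactoses and B3gat3 the closing glucuronic acid. B3gat3 was at 1492 to 1663 in Pkd1-/- against 1145 to 1339 in Wt libraries (log2 fold change 0.37, SE 0.08, adjusted p = 0.00136). Xylt2 was at 890 to 989 in Pkd2-/- against 1046 to 1186 in Wt libraries (log2 fold change -0.21, SE 0.06, adjusted p = 0.00912), and B3galt6 at 391 to 419 against 303 to 369 (log2 fold change 0.24, SE 0.08, adjusted p = 0.0169). B3gat3 lies on chromosome 19, where the 207 genes within 5 Mb of it had a median of 0.18 in Pkd1-/- cells, as did the 482 genes of the whole chromosome. B4galt7 stood at the threshold in Pkd1-/- cells (log2 fold change -0.21, adjusted p = 0.0502, and 0.0168 to 0.0496 in the 5 alternatives in which it passed) and did not pass in Pkd2-/- cells (adjusted p = 0.348).

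By limma, 0 of the 4 genes of precursor supply were called in either mutant, against 6.24% and 9.62% of all genes tested. In Pkd1-/- cells 3 passed the adjusted p-value and in Pkd2-/- cells 2, all lower, against 13.5% and 22.3% of all genes. Ugdh, which makes the glucuronic acid donor, was at 1800 to 1942 in Pkd1-/- and 1566 to 1762 in Pkd2-/- against 2123 to 2292 in Wt libraries. The groups did not overlap, and the log2 fold changes were -0.24 (SE 0.05, adjusted p = 0.001) and -0.41 (SE 0.05, adjusted p = 1.54e-06). On its stretch of chromosome 5 the median of 37 genes within 5 Mb was -0.37 in Pkd1-/- and -0.09 in Pkd2-/- cells. Over the 923 genes of the whole chromosome it was -0.18 and -0.04.

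Papss1 and Papss2 make PAPS, the sulfate donor of every sulfotransferase in the set, and Slc35b2 carries it into the Golgi. Papss1, the more abundant per kb, was at 11353 to 12372 in Pkd1-/- against 13438 to 14829 in Wt libraries (log2 fold change -0.26, SE 0.04, adjusted p = 0.00017), and overlapped with Wt in Pkd2-/- cells. Papss2 was counted at 108, 131, 111 and 157 in Wt, at 77, 70, 90 and 74 in Pkd1-/- and at 85, 116, 103 and 109 in Pkd2-/- libraries. Only the Pkd1-/- libraries lay wholly below Wt, at a log2 fold change of -0.69 (SE 0.15, adjusted p = 0.0015). Slc35b2 was at 3094 to 3638 in Pkd2-/- against 3644 to 4209 in Wt libraries (log2 fold change -0.21, SE 0.06, adjusted p = 0.00947).

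Of the genes that edit the chain after synthesis, Hpse, the heparanase that cleaves it, was the only one tested. It was counted at 385, 387, 352 and 404 in Wt, at 229, 225, 249 and 171 in Pkd1-/- and at 292, 413, 346 and 366 in Pkd2-/- libraries. The Pkd1-/- libraries lay below both other genotypes, at a log2 fold change of -0.81 (SE 0.12, adjusted p = 2.39e-05) against Wt, and the Pkd2-/- libraries overlapped with Wt (-0.12, SE 0.12, adjusted p = 0.457). Hpse lies 3.74 Mb from Pkd2 on chromosome 5, and the median of the 48 genes within 5 Mb of it was -0.39 in Pkd1-/- and -0.11 in Pkd2-/- cells. The endosulfatases Sulf1 and Sulf2, which remove 6-O-sulfate at the cell surface, had at most 2 counts in any library.

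Hs6st2, Gpc4 and Gpc3 are neighbors on chromosome X, with 371 kb between Hs6st2 and Gpc4. Of 24 genes listed within 1 Mb of Hs6st2, 9 had a count and 5 a mean of at least 10 normalized counts. Rap2c, a small GTPase gene on the far side of Hs6st2 from Gpc4, was at 1091 to 1300 in Wt, 1176 to 1261 in Pkd1-/- and 1066 to 1314 in Pkd2-/- libraries, with log2 fold changes of 0.06 and -0.03 (adjusted p = 0.607 and 0.771). Firre, a long non-coding RNA gene, and Gm5388, a processed pseudogene, overlapped between genotypes as well. Gm7840, a processed pseudogene between Hs6st2 and Gpc4 that was named after its values were seen, had 0 or 1 counts in Wt, 0 to 3 in Pkd1-/- and 1 to 3 in Pkd2-/- libraries, too few for a fold change. Mbnl3, a splicing regulator gene, was higher in Pkd2-/- cells (296 to 469 against 204 to 286 in Wt, log2 fold change 0.70, SE 0.17, adjusted p = 0.00228) and at 0.24 (adjusted p = 0.332) in Pkd1-/- cells. Over the 476 tested genes of chromosome X at that level, the median was 0.04 in Pkd1-/- and -0.08 in Pkd2-/- cells.

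**Figure D4:**
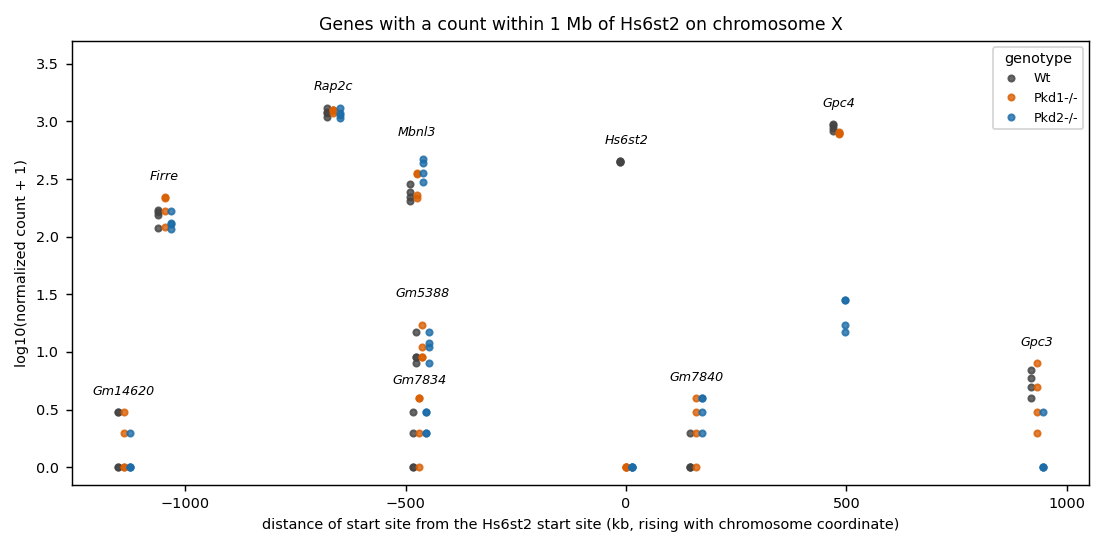
Normalized counts, as log10(count + 1), of Hs6st2 and the genes with a count within 1 Mb of it, against the distance between start sites in kb, with 1 point per library and the genotypes set side by side. Hs6st2 is at 0 in both mutants, Gpc4 is low in Pkd2-/- libraries only, and Rap2c lies at 1066 to 1314 in all 12 libraries.

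The other heparan sulfate proteoglycan cores outside the set, those of basement membrane and the TGF-beta coreceptor, stood higher in Pkd2-/- cells, where 4 of 4 tested passed the adjusted p-value and 1 was called, against 20.0% and 3.24% of all genes in that direction. Tgfbr3, the called coreceptor gene, was counted at 700, 724, 684 and 743 in Wt, at 408, 398, 384 and 496 in Pkd1-/- and at 2972, 3653, 2903 and 3768 in Pkd2-/- libraries. The 3 genotypes did not overlap, at log2 fold changes of 2.21 (SE 0.09, adjusted p = 3.94e-13) in Pkd2-/- and -0.76 (SE 0.09, adjusted p = 2.21e-06) in Pkd1-/- cells. In Pkd1-/- cells, 3 of the 4 passed the adjusted p-value, all lower, against 13.5% of all genes, and none was called. Of 7 tested genes for other steps of assembly and sulfate supply, 0 were called in either mutant by limma, against 6.24% and 9.62% of all genes tested. In Pkd1-/- cells 0 were below an adjusted and 1 below an unadjusted p-value of 0.05, and in Pkd2-/- cells 2, both lower, and 3.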

How the data were processed

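Total RNA of 12 mIMCD3 libraries, 4 per genotype by their labels, was sequenced. Reads were trimmed by the authors and aligned to mm10 (GRCm38) with HISAT2, genes were counted with htseq-count, and DESeq2 supplied the size factors by which the counts were divided. The strand setting of the counting is not given in the sources used here. The deposited values are these normalized counts, rounded by the authors to whole numbers, and are treated as a score and not as read counts, so no count model was used to test genotypes. The worth of 1 read was estimated for each library from the gaps that rounding leaves among the values, and is approximate.

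GENCODE release M21 gave symbols, positions and merged exon lengths for 47223 identifiers, with 419 unmatched. Genotypes were compared with limma 3.58.1 in R 4.3.3 on log2(normalized count + 1), with a variance trend, over the 18552 genes whose mean reached 1, with all 12 libraries in 1 model and two-sided p-values adjusted by the Benjamini-Hochberg method over all genes tested. A fold change is on that scale and understates the change of weakly expressed genes. The thresholds are those of the study. Where a group was at 0 in all libraries, the fold is a bound against 3 counts per library, and where it summed to 1 to 3 counts, a ratio with a 95% exact (Clopper-Pearson) interval, which takes the rounded values as counts and is approximate. The test was run on simulated data with known changes before use. These changes were set only in genes well above the floor, so recovery at the level of Hs3st1, Hs3st5, Gpc2 and Gpc3 was not tested. Levels of different genes were compared per kb of exon only. Promoter windows came from RefSeq (GRCm38.p6). Python 3.11.15, pandas 2.3.3 and matplotlib 3.10.9 were used for windows and figures.

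The genes and lists were chosen with earlier results of these data known. Named are all 42 genes, Pkd1 and Pkd2, up to 4 called genes of each further list with the largest log2 fold change against Wt, and the genes within 1 Mb of Hs6st2 with a mean of at least 10. Alternatives were another pseudocount, filter, scaling, weighting or set of genotypes in the model, no fold threshold, a replicate block, and leaving out each library. Spry4, Dusp6, Fgfr2 and Gm7840 were named outside that rule after their values were seen. The other marker genes, the other basement membrane cores and the tested genes near a member are given as counts, sums or medians.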

Additional observations from a re-analysis of the deposited data

Results flagged for a closer look

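In 4 of 82 groups of 4 libraries of the heparan sulfate genes, 1 library stood apart from the other 3 by more than Dixon's 95% critical value for the gap as a share of the range, and chance gives about 5% of groups. Sdc2 in the first Wt library was at 6210 against 5666 to 5707 in the other Wt libraries (share 0.925), and without it the log2 fold change of Sdc2 stayed past both thresholds in Pkd2-/- cells. Ext2 in the same library was at 2899 against 3267 to 3330 (share 0.854). Slc35b2 in the first Pkd1-/- library was at 3864 against 3596 to 3637 (share 0.847), and Ndst2 in the third Pkd1-/- library at 728 against 691 to 697 (share 0.838).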

How the results depend on the processing

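Over the settings that kept all libraries, 1140 of 1151 fold changes of the single genes followed kept their side of the call threshold. With 1 library left out, 1745 of 1761 did. The exceptions are the genes named next, Etv5, Dusp6 and Spry4, whose values are given with those genes, and Ust, which lost its call in Pkd1-/- cells in 4 of the settings with all libraries and without any one of 8 libraries. None was reversed. Without the fold threshold, 15 genes other than Hs6st2 passed in Pkd1-/- and 19 in Pkd2-/- cells against wild-type, and 20 between the mutants. With a minimum mean of 10, 0 and 5 genes were called in these comparisons with wild-type, since the weakly expressed Hs3st1, Hs3st5, Gpc2 and Gpc3 were then not tested. A pseudocount of 5 ended the calls of Gpc2 in both mutants and of Gpc3 in Pkd2-/- cells, and of Gpc3 and Hs3st5 between the mutants. The calls numbered 2 to 3, 8 to 8 and 9 to 10 when single libraries were left out. Without the second Wt library, Gpc2 fell under the filter and Extl1 was called (-1.31 in Pkd2-/- cells), and without the second Pkd1-/- library Gpc3 was not called between the mutants (-1.24). By the adjusted p-value alone, leaving out single libraries moved Sdc2 (0.0748 to 0.0802, Wt library 1 or Pkd1-/- library 2 or 4) and Sdc4 (0.0726 to 0.078, Wt library 4 or Pkd1-/- library 2) past 0.05 in Pkd1-/- cells, and Ext1 (0.0663 to 0.0911, Wt library 2, 3 or 4 or Pkd2-/- library 1), Sdc1 (0.0637 to 0.0893, Wt library 1 or 4 or Pkd2-/- library 1 or 3) and B3galt6 (0.0733, Wt library 3) in Pkd2-/- cells. B4galt7 passed in Pkd1-/- cells without Wt library 1 (0.0168), Pkd1-/- library 1 (0.0435) or Pkd2-/- library 4 (0.0426), with a minimum mean of 10 (0.0416) and with vooma weights (0.0496), and Glce in Pkd2-/- cells without Pkd2-/- library 3 (0.0358). Vooma weights gave 0.0189 for Gpc6 in Pkd1-/- cells. A model of the 2 genotypes alone gave 0.055 for Ext1 and 0.0597 for Sdc1 in Pkd2-/- cells. In Pkd1-/- cells it gave 0.0412 for Gpc4 and 0.0349 for Gpc6. The labels number the replicates 1 to 4 in each genotype, and deviations of libraries with the same number correlated at -0.07 to 0.20. The libraries numbered 4 gave the highest value in each comparison (0.09, 0.20 and 0.17). Libraries of different numbers were not correlated, so whether a number stands for a shared batch cannot be told. With a replicate block, 3, 8 and 10 genes were called, the same counts as without it, and 1170, 1790 and 2183 of all genes against 1158, 1785 and 2182, while Ust in Pkd1-/- cells lost its call (adjusted p = 0.0533). An upper quartile rescaling moved the median of all genes by at most 0.01. Depth limits Gpc2, Gpc3, Hs3st1, Hs3st5, Extl1 and Sdc3, whose counts reach the floor of 3. Ndst4 and Gpc6 reach it in Pkd2-/- cells only, and Hs6st2 in both mutants. Clones were not replicated.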

Other observations

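Genes that build and sulfate the related chondroitin and dermatan sulfate chains on the same linker were measured beside the heparan sulfate genes. Of 16 listed, 10 were tested, and 2 were called in Pkd1-/- cells and 4, all lower, in Pkd2-/- cells, against 6.24% of all genes tested in Pkd1-/- cells and 6.38% called lower in Pkd2-/- cells. Dsel, a dermatan sulfate epimerase, was counted at 8, 9, 2 and 13 in Wt, at 365, 460, 472 and 409 in Pkd1-/- and at 1, 0, 2 and 0 in Pkd2-/- libraries. It stood far above Wt in Pkd1-/- cells (log2 fold change 5.76, SE 0.43, adjusted p = 5.39e-09), and the Pkd2-/- libraries, which overlapped with Wt, summed to 9.38% of it (95% exact interval 1.84% to 30.0%, adjusted p = 0.000193). Dse, the other epimerase of this pathway, was at 118 to 153 in Wt, 101 to 145 in Pkd1-/- and 1 to 6 in Pkd2-/- libraries, at a log2 fold change of -5.14 (SE 0.29, adjusted p = 5.63e-11) in Pkd2-/- cells. Chst7, a chondroitin 6-O-sulfotransferase, was lower in Pkd2-/- cells by a log2 fold change of -2.32 (SE 0.32, adjusted p = 9.91e-06). Ust, which adds 2-O-sulfate to these chains, was counted among those called in both mutants. It had 2 to 9 counts in Wt, 0 to 4 in Pkd1-/- and 0 in Pkd2-/- libraries, at least 2.08-fold lower in the latter, but passed the filter only through its Wt counts, so its p-values are not given.

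Of 8 lysosomal genes that break heparan sulfate down, 0 were called in Pkd1-/- cells by limma, against 6.24% of all genes tested. There, 3 were below an adjusted (against 27.1%) and 3 below an unadjusted p-value of 0.05. In Pkd2-/- cells 1 was called, against 9.62%, and 6 passed the adjusted p-value, 3 higher and 3 lower, against 42.3%. Arsg, the sulfatase acting on 3-O-sulfated glucosamine, was counted at 26, 19, 14 and 35 in Wt, at 34, 35, 43 and 39 in Pkd1-/- and at 215, 244, 234 and 227 in Pkd2-/- libraries. The Pkd2-/- libraries lay above all others, at a log2 fold change of 3.31 (SE 0.21, adjusted p = 3.39e-10).

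Fibroblast growth factor receptors bind their ligands together with heparan sulfate. Of 12 tested genes for these receptors and their feedback regulators, 4 were called in Pkd1-/- cells, all higher (Fgfr1, Etv4, Etv5 and Spry4), and 4 in Pkd2-/- cells, 3 higher (Fgfr1, Etv5 and Dusp6) and 1 lower (Fgfr3), against 6.24% and 9.62% of all genes tested. By the adjusted p-value alone, 5 were higher and 2 lower in Pkd1-/- cells, and 8 higher and 1 lower in Pkd2-/- cells, against 27.1% and 42.3% of all genes. Fgfr2, the most abundant of these receptors per kb in Wt, was uncalled, with log2 fold changes of -0.28 (SE 0.06, adjusted p = 0.000942) and 0.49 (SE 0.06, adjusted p = 1.21e-06). Spry4, Dusp6 and Fgfr2 were named after their values were seen. Etv5, a transcription factor gene induced by this pathway, was at 26 to 35 in Wt, 62 to 114 in Pkd1-/- and 52 to 64 in Pkd2-/- libraries, with log2 fold changes of 1.45 (SE 0.19, adjusted p = 1.14e-05) and 1.04 (SE 0.19, adjusted p = 0.000217). Without Wt library 1 or 4 or Pkd2-/- library 2, Etv5 stood just short of the fold threshold in Pkd2-/- cells (1.00), as it did with a pseudocount of 5 (0.94). Dusp6 fell short of it without Wt library 1 (0.89) or 2 (0.98) or Pkd2-/- library 4 (0.82), and Spry4 in Pkd1-/- cells with a pseudocount of 5 (0.97). Fgfr1 was at 0 in Wt, 15 to 30 in Pkd1-/- and 1 to 15 in Pkd2-/- libraries, at least 7.08-fold and 2.17-fold higher. Without Pkd2-/- library 1, which held 15 counts, the latter bound was 1.22-fold. Fgfr3 was at 282 to 335 in Wt, 195 to 219 in Pkd1-/- and 48 to 70 in Pkd2-/- libraries, at a log2 fold change of -2.46 (SE 0.12, adjusted p = 6.8e-12) in Pkd2-/- cells.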
